A study of Drosophila melanogaster with 9 samples.

Results

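Nuclear genes for oxidative phosphorylation were taken as all genes whose FlyBase symbol begins with ND-, UQCR-, COX and a digit, or ATPsyn. The rule found 80 genes among the 17558 gene identifiers of the files. By symbol, 40 belong to complex I, 9 to complex III, 16 to complex IV and 15 to complex V. Of the 80, 21 carry a symbol ending in L, with or without a digit, which marks a second gene copy resembling a subunit gene (a paralogue here), and 59 do not. The rule used names only and no measured value. No assembly factor of the COX10 to COX20 kind has a symbol that matches in this annotation.

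The respiratory chain sits in the inner mitochondrial membrane. Complex I (NADH dehydrogenase) and complex II (succinate dehydrogenase) pass electrons to ubiquinone, complex III (the cytochrome bc1 complex) passes them to cytochrome c, and complex IV (cytochrome c oxidase) passes them to oxygen. Complexes I, III and IV pump protons, and complex V (ATP synthase) uses the returning protons to make ATP. Most subunits are encoded in the nucleus and imported, while a few central ones are encoded by the mitochondrial genome. The growing Drosophila egg is loaded with mitochondria during oogenesis, and the ovary holds germline cells, somatic follicle cells that later secrete the eggshell, and a muscle sheath.

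RNA was sequenced from ovaries of 3-day-old Drosophila melanogaster females kept at 25 °C, with 10 females per sample and 3 libraries per genotype. The series asks whether heat shock gene expression requires Moesin, the fly ERM protein, which links actin to the plasma membrane. The null heterozygote carried moe[G0415], a null allele per the labels, over w1118. The NES heterozygote had moe[NES] over the same w1118 chromosome. In the mutant, moe[NES] was paired with moe[G0415], so that every group had at least 1 altered moe allele and no group was free of both. Comparisons among the 3 genotypes share libraries and are given side by side. Whether replicates are separate crosses is not stated in the labels. The p-values set genotype differences against the spread between these samples only, and may not extend to other crosses. In whole ovaries fewer cells of a type and less RNA per cell cannot be told apart.

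Depth ranged from 31.8 to 43.6 M (1e6) counts per library. Of the 80 genes, 56 had enough counts to be tested, and the other 24 were the 21 paralogues together with ND-B8, ND-MNLL and UQCR-14. Moe itself was at 356 to 439 CPM (counts per 1e6, TMM-scaled) in the null heterozygote, 384 to 440 in the mutant and 619 to 769 in the NES heterozygote. Libraries differed in their share of transcripts of 16 eggshell genes, with 0.626% of counts for null heterozygote replicate 1 and 3.92% for mutant replicate 1 as the extremes. Null heterozygote replicates 1 and 3 (0.781%) stood apart from the other 7 libraries, which lay at 1.81% or more.

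Levels differed between complexes far more than between genotypes. In CPM per kilobase of annotated exon, the median over tested genes was 73.2 for the 32 of complex I, 95.7 for the 5 of complex III, 206 for the 8 of complex IV and 267 for the 11 of complex V. A complex I gene lay below a complex IV gene in 95.7% of the 256 pairs and below a complex V gene in 92.05% of the 352 pairs. The neighbouring classes overlapped more, since a complex I gene lay below a complex III gene in 73.1% of pairs and a complex IV gene below a complex V gene in 69.3%. In all, 51 of 56 genes lay between 40 and 300 CPM per kilobase. These are transcript levels, and exon lengths are those of all annotated isoforms joined together.

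Complex V held the most abundant transcripts. ATPsynC, which encodes the c subunit of the membrane ring that turns as protons pass, had the highest level of all at 966 CPM per kilobase. ATPsynbeta, the catalytic subunit, followed at 801. Both stood above the next gene of the complex, the peripheral stalk gene ATPsynB at 290, and their lowest libraries (855 and 663) lay above its highest (331). ATPsynC and ATPsynbeta together made up 35.5% of the summed CPM of the 56 genes. Close together lay ATPsynCF6 (coupling factor 6) at 272, ATPsynO (the oligomycin sensitivity protein) at 267 and ATPsyngamma (the rotating shaft) at 255 CPM per kilobase, with ATPsynD lower at 214. The lowest of the complex were ATPsynG, a membrane subunit, at 182 and ATPsyndelta, of the central stalk, at 55.3. ATPsyndelta has 3817 annotated exon bases, of which 35.6% are shared with CG2962 on the opposite strand, so its level per length rests on a long annotated model.

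In complex IV the level per kilobase ran from 297 for COX5A, through 272 for COX7B and 238 for COX7A, to 179 for COX5B and 120 for COX7C. COX4, a nuclear subunit that binds the mitochondrially encoded core, was at 216. The ranges over libraries of COX5A (267 to 337) and COX7B (236 to 312) overlapped, and so did those of COX7A and COX4. In complex III the core protein genes UQCR-C1 (248) and UQCR-C2 (151) were highest, UQCR-Q was at 95.7, and the small subunit genes UQCR-6.4 (80.1) and UQCR-11 (69.1) were lowest. UQCR-6.4 shares 40.5% of its exon bases with POSH on the opposite strand, whose part in its level and rank was not tested. UQCR-C1 and UQCR-C2 did not overlap in any library (218 to 264 against 125 to 166).

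In complex I, ND-ACP, the mitochondrial acyl carrier protein, had 224 CPM per kilobase and ND-MLRQ had 221. The mammalian counterpart of ND-MLRQ is now placed in complex IV, and the fly gene is counted here under complex I by its symbol. ND-SGDH, an accessory subunit of the membrane arm, came next at 133. The genes of the electron path lay lower, between 66.8 and 109. Levels were 99.02 for ND-51 (the NADH-binding flavoprotein), 66.8 for its partner ND-24, 96.5 for ND-75 and 109 for ND-49 (at the quinone site). ND-30 had 92.7, ND-23, an iron-sulphur protein, 89.3, and ND-20, which carries the last iron-sulphur cluster, 73.3 CPM per kilobase. Subunits ND-51, ND-75, ND-30 and ND-23 thus differed from each other by less than the range of each across the 9 libraries. The highest libraries of ND-24 (76.9) and ND-20 (81.0) lay below the lowest of ND-51 (84.4). The lowest were ND-ASHI at 35.2 and ND-MWFE at 6.34, which is 5.55-fold below ND-ASHI. ND-MWFE shares 15.2% of its exon bases with Nrk on the same strand and 19.8% with TppII on the opposite strand.

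**Figure D1:**
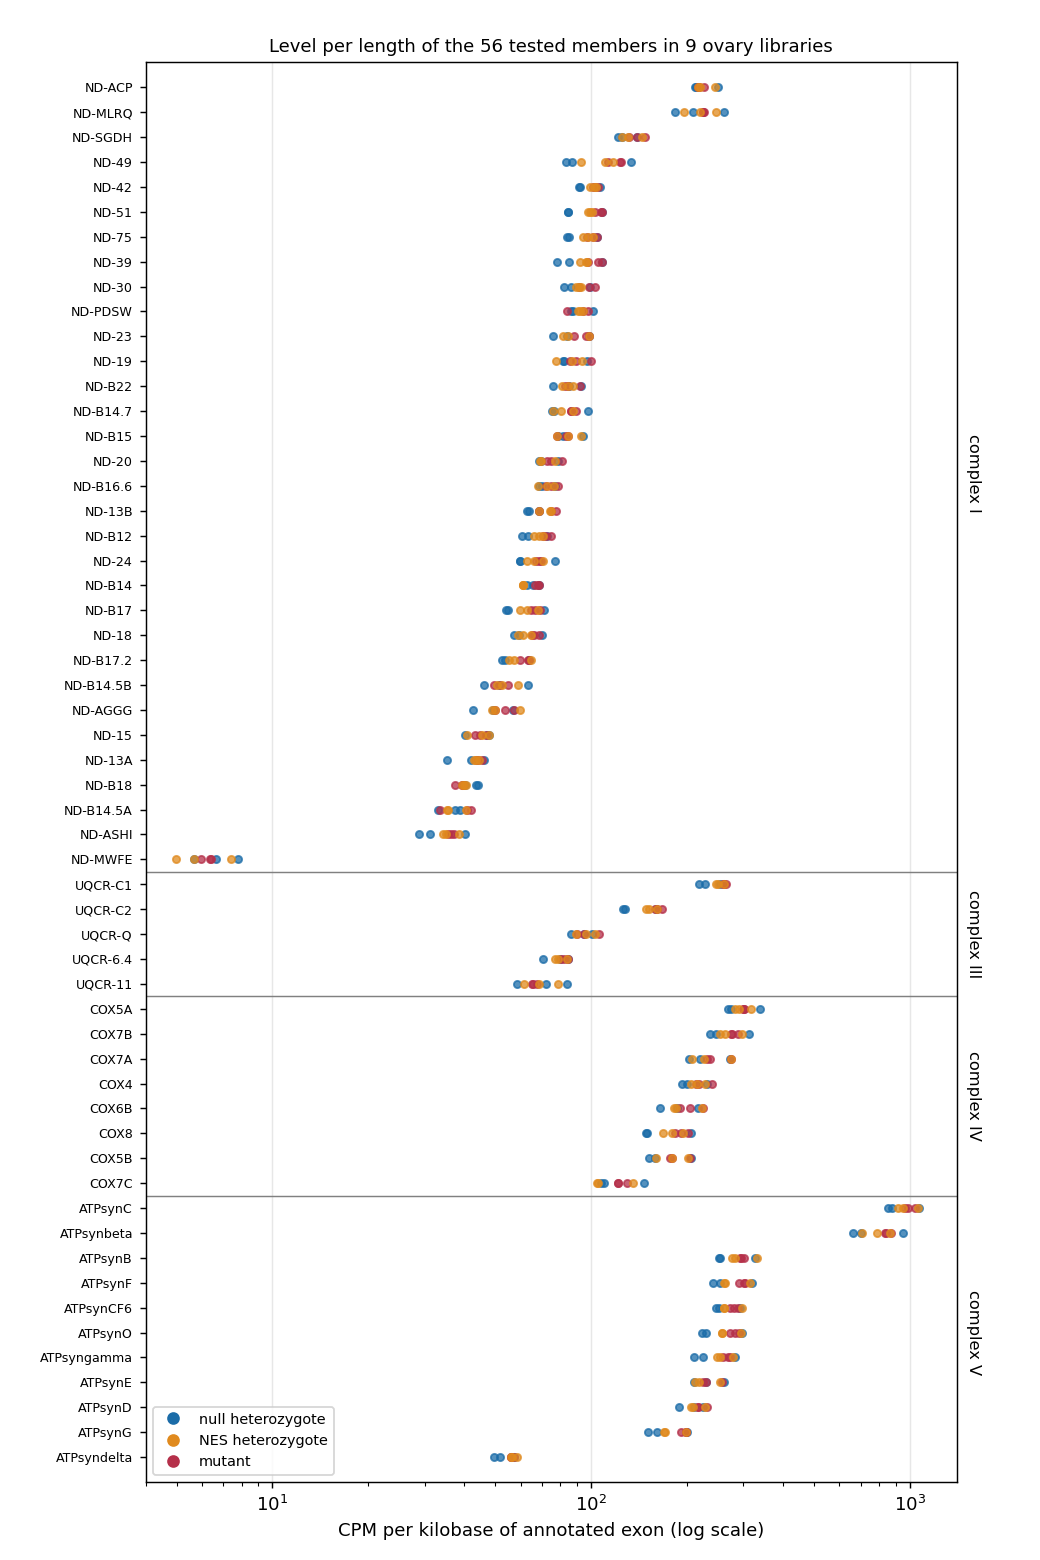
Level of the 56 tested genes in CPM per kilobase of annotated exon on a log axis, 1 point per library, coloured by genotype and sorted within complexes I, III, IV and V. The points of each gene lie close together across genotypes, while genes range from 6.34 (ND-MWFE) to 966 (ATPsynC).

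Among the genes with no tested value, ND-B8, ND-MNLL and UQCR-14 were at 0 counts in all 9 libraries, although their symbols are those of complex I and III subunits and not of paralogues. All exon bases of ND-MNLL (X:7893053-7893798) are shared with CG45089 on the same strand, which was also at 0. All exon bases of UQCR-14 (X:16286288-16286988) are shared with CG32576 on the opposite strand, which was at 13.2 to 22.5 CPM. Only 15.4% of the exon bases of ND-B8 (2L:4454626-4455207) are shared, with Gs1l on the opposite strand at 40.3 to 46.5 CPM. Across protein-coding genes in the files, 276 of the 286 that share every exon base with another gene on the same strand were at 0 (96.5%), as were 63 of 64 that share every base only with the opposite strand (98.4%). Among the 9292 that share none, 1351 were at 0 (14.5%). The part of shared exons in the values of 0 of ND-MNLL, UQCR-14 and ND-B8 was not tested, and the 0s are given as listed and not as an absence of the transcript.

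The 21 paralogues were at or near 0 in every genotype. Together they had 275 counts over the 9 libraries, with 6 at 0, 8 with 1 to 9 counts and 7 with 10 or more. The 6 at 0 were ATPsynGL, COX5BL, COX6AL2, ND-24L, ND-B14.5AL and UQCR-14L, for which a floor of 3 counts over the 9 libraries together allows up to 0.00901 CPM, covering counting error only. All exon bases of COX5BL are shared with Trmt6 on the opposite strand (37.5 to 41.1 CPM). COX6AL2 shares 67.0% of its exon bases with Ir75d on the same strand and 16.1% with Prp6 on the opposite strand (42.7 to 68.3 CPM). The floor makes no allowance for shared exons, whose part in the 0s of COX5BL and COX6AL2 was not tested. The highest paralogue was COX7CL, with 58 counts (0.172 CPM) beside 102.4 CPM for COX7C, which lies just upstream on the same strand of 2R. COX4L and ATPsynepsilonL each had 42 counts, beside 265 CPM for COX4 and 97.7 CPM for sun, the gene of the ATP synthase epsilon subunit. Of the 42 counts of ATPsynepsilonL, 22 came from 1 library.

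Among the remaining paralogues, COX7AL had 39 counts and COX7AL2 9, beside 165.8 CPM for COX7A. COX6AL had 27 counts, beside 132 CPM for levy, the cytochrome oxidase subunit 6A gene. UQCR-6.4L had 26 and UQCR-11L 19, beside 44.9 and 111 CPM for UQCR-6.4 and UQCR-11. Those with 1 to 3 counts were ATPsynCF6L, ATPsynbetaL, COX6CL, ND-20L, ND-49L, ND-51L1 and ND-51L2, beside 191.7 CPM for ATPsynCF6, 1912 for ATPsynbeta, 93.5 for cype (subunit 6C), 97.9 for ND-20, 174 for ND-49 and 157 for ND-51. None passed the filter on low counts, so no paralogue was tested with all 9 libraries. UQCR-6.4L had 5, 6 and 10 counts in mutant replicates 1, 2 and 3, above 0, 1 and 2 in the null heterozygote and 0, 1 and 1 in the NES heterozygote. The share of genes at such low counts with this order was not computed, so it is not read as a difference between genotypes. COX7CL had 19, 7 and 5 counts in the mutant, 1, 6 and 1 in the null heterozygote and 7, 10 and 2 in the NES heterozygote, so that its groups overlapped.

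The tested genes varied less between libraries than most genes. The coefficient of variation over the 9 libraries had a median of 8.33%, from 5.07% for ATPsyndelta to 16.2% for ND-49. The median was 13.5% over all 8642 genes tested and 9.41% over the 5001 genes at or above 30.2 CPM, the level of the second lowest tested gene. The summed CPM of complex V over complex I lay between 2.08 and 2.23 in the 9 libraries, that of complex IV over complex I between 0.459 and 0.505, and that of complex III over complex I between 0.331 and 0.353. These ratios to complex I thus moved by at most 1.10-fold across libraries, while the summed CPM of all 56 genes moved by 1.26-fold, from 9263 to 11666. Ratios among complexes III, IV and V were not computed.

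What variation there was ran between libraries of a genotype rather than between genotypes. The median deviation of the 56 genes from their own 9-library mean, on the log2(CPM + 1) scale, was -0.15, 0.14 and -0.14 in null heterozygote replicates 1, 2 and 3. It was -0.07, 0.11 and -0.03 in the NES heterozygote, and 0.08, 0.04 and 0.03 in the mutant. The null heterozygote therefore held both the highest and the lowest libraries, and the mutant libraries lay close together between them. Replicate 2 of the null heterozygote was above replicates 1 and 3 for 56 of 56 genes, by a median of 0.30 on the log2 scale (1.23-fold), from 0.08 for ND-B18 to 0.65 for ND-49. It held the highest of the 9 values for 33 genes, while replicates 1 and 3 held the lowest for 26 and 22. All 3 mutant libraries were above null heterozygote replicates 1 and 3 for 45 of 56 genes, and all 3 were below replicate 2 for 36 of 56. These counts were not taken over all genes, so they are not read as a trait of the respiratory genes. Replicate 2 also mattered beyond this set. With it left out, 41.6% of all genes were called in the mutant against the null heterozygote.

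Other transcripts differed between the same libraries. The eggshell share was 0.626%, 3.29% and 0.781% for null heterozygote replicates 1, 2 and 3, then 3.92%, 2.52% and 3.44% in the mutant and 1.81%, 3.72% and 2.76% in the NES heterozygote. Summed CPM of the 3 yolk protein genes was 1519 to 8722 in the null heterozygote, 7204 to 9403 in the mutant and 3430 to 7628 in the NES heterozygote. Muscle sheath markers (12 of 13 in the files, none at 0) summed to 597 to 744 CPM in null heterozygote libraries, 653 to 835 in the mutant and 600 to 756 in the NES heterozygote, and the 6 follicle cell markers to 305 to 472, 431 to 515 and 345 to 451. The 6 germline markers found, of 8 listed, summed to 2358 to 3100 CPM in null heterozygote libraries, 2587 to 3047 in the mutant and 2449 to 2993 in the NES heterozygote. Null heterozygote replicate 2 was above replicates 1 and 3 in each of these 5 sums, as it was for the respiratory genes. The part of these transcripts in the respiratory gene levels was not tested by these sums, and a fit with the eggshell share as a term is given with the comparisons. Markers of other tissues had low levels. The 4 blood cell markers (none at 0) summed to 4.20 to 4.65 CPM in the mutant, above 1.87 to 2.98 in the null heterozygote and 1.81 to 3.61 in the NES heterozygote. Of these, Pxn had a log2 fold change of 0.99 (SE 0.26, edgeR adjusted p = 0.126) for the mutant over the null heterozygote and 1.10 (SE 0.26, adjusted p = 0.123) over the NES heterozygote. The 6 fat body markers summed to 0.253 to 0.908 CPM in null heterozygote libraries, 0.449 to 1.87 in the mutant and 0.169 to 0.415 in the NES heterozygote, with Lsp1alpha at 0. Fbp2 among them had 33, 9 and 24 counts in the mutant, 9, 10 and 8 in the null heterozygote and 1, 0 and 0 in the NES heterozygote, with an edgeR adjusted p of 0.0351 for the mutant against the NES heterozygote. The 11 testis markers summed to 4.94 to 5.92 CPM in the mutant, below 6.46 to 8.47 in the null heterozygote, and to 4.58 to 7.02 in the NES heterozygote, with dj and Mst84Da at 0. The 2 tested went opposite ways in the mutant against the null heterozygote. The log2 fold change was 5.24 for sa (SE 1.07, edgeR adjusted p = 0.0608) and -0.70 for mia (SE 0.18, adjusted p = 0.129). Gut markers (4 genes) reached 4.84 and 14.5 CPM in mutant replicates 1 and 3 and at most 1.03 in the others. The part of blood cell, fat body and gut RNA in the respiratory gene levels was not tested.

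**Figure D2:**
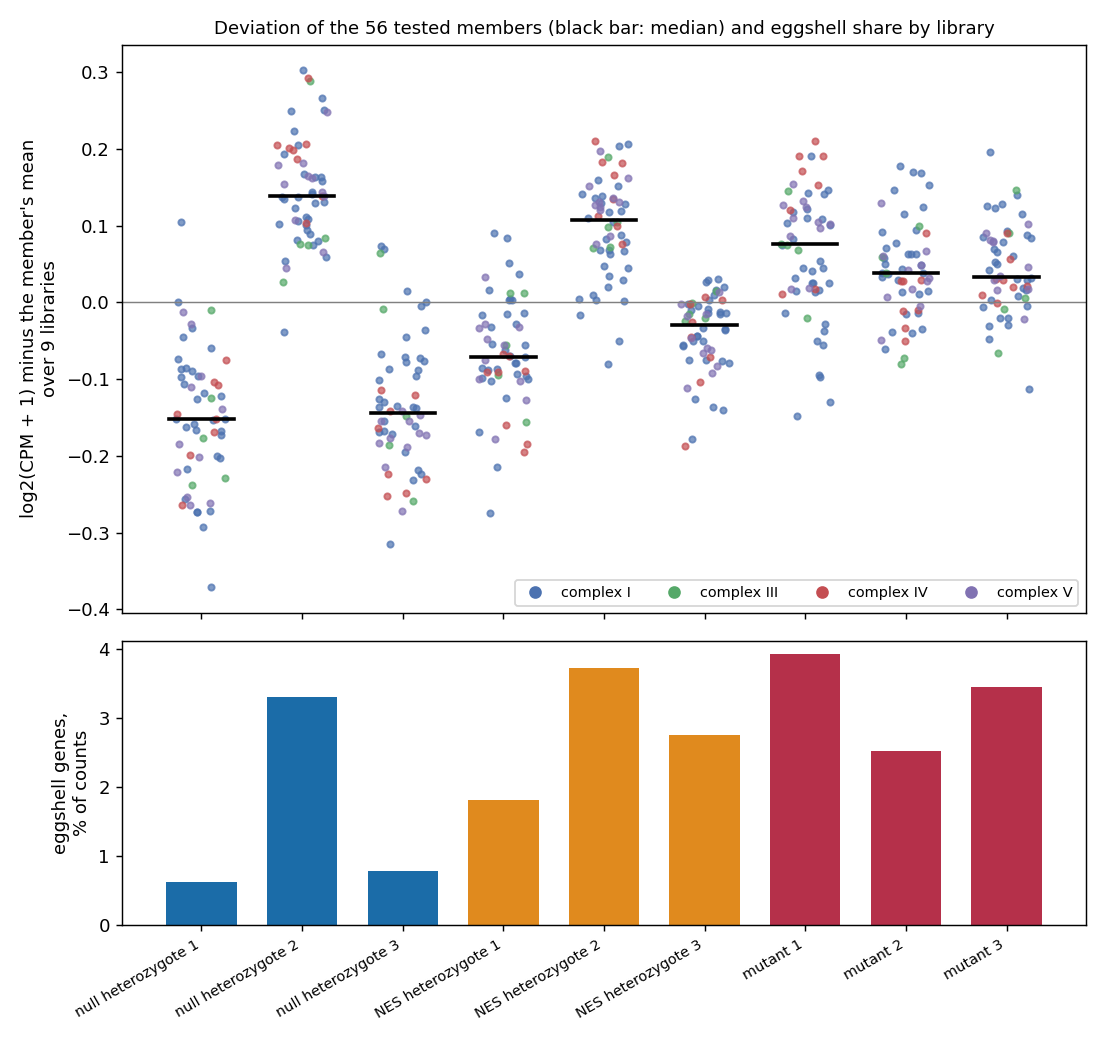
Upper panel: deviation of each of the 56 tested genes in log2(CPM + 1) from its mean over 9 libraries, 1 point per gene, coloured by complex, with a bar at the median. Lower panel: share of counts in 16 eggshell genes. Null heterozygote replicates 1 and 3 have the lowest medians (-0.15 and -0.14) and the lowest eggshell shares (0.626% and 0.781%), while replicate 2 has the highest median (0.14).

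The mutant and the null heterozygote differ in whether moe[NES] or the wild-type copy of moe accompanies the null allele. Respiratory genes of all complexes leaned slightly higher in the mutant, by a median log2 fold change of 0.09 (1.07-fold), against 0.0002 over all 8642 genes, and none passed the threshold. In edgeR's quasi-likelihood test with Benjamini-Hochberg adjustment over all genes, 0 of 56 were called at an adjusted p below 0.05, where 1.25% of all genes were called. DESeq2 also called 0. At an unadjusted p below 0.05 there were 3 of 56 (ND-13B, UQCR-C1 and UQCR-C2), against 1465 of all genes. The log2 fold change was positive for 49 of 56 genes and ranged from -0.14 to 0.25. It was positive for 26 of 32 genes of complex I (median 0.09), 4 of 5 of complex III (0.07), 8 of 8 of complex IV (0.10) and 11 of 11 of complex V (0.10).

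This lean depended on which null heterozygote libraries were used. Without null heterozygote replicate 2 the median was 0.20, and 23 genes of the set were called higher, among them 22 of the 56 and COX7CL, while 41.6% of all genes were called. It was 0.04 without replicate 1, without replicate 3, and with libraries scaled by size alone, with 0 called in each. With replicate 2 as the only null heterozygote library (n = 1, the spread taken from the other genotypes) the median was -0.09, with 3 of 56 positive and 0 called. Fitted with the eggshell share as a term, the median was -0.08, with 8 of 56 positive, and UQCR-11 was called lower (-0.38, SE 0.08, edgeR adjusted p = 0.0201), where 9.10% of all genes were called.

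Complex III held the lowest p-value of the comparison. UQCR-C1 (FBgn0038271, BDGP6.54 annotation, 3R:14890231-14892387), a core protein of the matrix side of complex III, was at 371, 412 and 355 CPM in null heterozygote libraries (replicates 1, 2 and 3, the order used throughout), 424, 421 and 431 in the mutant and 408, 425 and 401 in the NES heterozygote. All mutant libraries were above all null heterozygote libraries and overlapped the NES heterozygote. Its log2 fold change against the null heterozygote was 0.17 (SE 0.07, edgeR adjusted p = 0.276). UQCR-C2 (FBgn0250814, 3L:16584124-16586111), the partner core protein, was at 215, 269 and 212 CPM in null heterozygote libraries, 267, 272 and 281 in the mutant and 256, 271 and 250 in the NES heterozygote. Replicate 2 of the null heterozygote lay among the mutant libraries and the other replicates below them. Its log2 fold change was 0.24 (SE 0.09), with the lowest adjusted p of the 56 (edgeR, 0.267).

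UQCR-11 (FBgn0260008, 3L:25120709-25126171) went the other way within the same complex. It was at 94.4, 136 and 116 CPM in null heterozygote libraries, 109, 105 and 106 in the mutant and 99.3, 126 and 111 in the NES heterozygote, so that all 3 groups overlapped. Its log2 fold change was -0.11 (SE 0.13) against the null heterozygote and -0.07 (SE 0.13) against the NES heterozygote, both positioned among the 3 lowest of the 56. UQCR-Q (0.05, SE 0.09) and UQCR-6.4 (0.07, SE 0.08) lay near 0 against the null heterozygote.

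In complex I, ND-13B (FBgn0047038, 3L:10693184-10694108), an accessory subunit of the peripheral arm, was at 37.6, 40.8 and 38.1 CPM in null heterozygote libraries, 46.3, 44.7 and 41.0 in the mutant and 44.5, 44.3 and 40.9 in the NES heterozygote. Every mutant and NES heterozygote library was above the null heterozygote, but narrowly, with 40.9 CPM in NES heterozygote replicate 3 against 40.8 in null heterozygote replicate 2. The share of all genes that divide in this way was not computed, so it is not read as a trait of ND-13B. Against the null heterozygote, the log2 fold change of the mutant was 0.18 (SE 0.07, edgeR adjusted p = 0.276) and that of the NES heterozygote 0.16 (SE 0.08, edgeR adjusted p = 0.584). ND-B18 (FBgn0030605, X:15063733-15064926), an accessory subunit of the membrane arm, was at 49.1, 50.0 and 45.4 CPM in null heterozygote libraries, 44.7, 44.5 and 42.1 in the mutant and 45.2, 45.7 and 44.2 in the NES heterozygote. The mutant lay below the null heterozygote in every library, with a log2 fold change of -0.14 (SE 0.06, edgeR adjusted p = 0.309), the lowest of the 56. ND-13B and UQCR-C1 were the 2 genes wholly higher and ND-B18 the 1 wholly lower, where 10.6% and 7.80% of all genes were wholly higher and wholly lower.

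ND-49 (FBgn0039909, 4:568296-571554), a core subunit at the quinone site, had the highest log2 fold change of the comparison, 0.25, but also a wide error (SE 0.17). It was at 133, 212.5 and 138 CPM in null heterozygote libraries, 197, 180 and 197 in the mutant and 148, 187 and 176 in the NES heterozygote. Null heterozygote replicate 2 was above every mutant library, and replicates 1 and 3 were below every other library. The other core genes of complex I had log2 fold changes of 0.19 for ND-51, 0.15 for ND-75, 0.13 for ND-23 and ND-30, 0.08 for ND-20 and 0.07 for ND-24, with SEs of 0.08 to 0.11. The accessory subunit gene ND-ACP had -0.03 (SE 0.08). ND-MWFE, at 5.67 ± 0.895 CPM in null heterozygote libraries and 5.28 ± 0.205 in the mutant (SD, n = 3), had -0.10 with the widest SE of the 56 (0.20). Neither ND-49 nor ND-MWFE passed the threshold (edgeR adjusted p = 0.427 and 0.762).

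In complex V the most abundant genes showed the same division of the null heterozygote libraries. ATPsynC (FBgn0039830, 3R:31216145-31219630) was at 1634, 1988 and 1596.5 CPM in null heterozygote libraries, 1931, 1793 and 1842 in the mutant and 1707, 1969.8 and 1777 in the NES heterozygote. ATPsynbeta (FBgn0010217, 4:1031484-1034917) was at 1582, 2258 and 1674 CPM in null heterozygote libraries, 2072, 1990.5 and 2007 in the mutant and 1679.7, 2066.5 and 1881 in the NES heterozygote. For both, null heterozygote replicate 2 was the highest of the 9 libraries, and replicates 1 and 3 were the lowest. Their log2 fold changes against the null heterozygote were 0.09 (SE 0.10) and 0.14 (SE 0.14). The other named subunits lay between 0.09 for ATPsynCF6 and 0.20 for ATPsynG (134 ± 20.2 against 154 ± 3.15 CPM, SD, n = 3), with 0.17 for ATPsynO and 0.16 for ATPsyngamma. In complex IV, COX4 had 0.11, COX5B 0.12 and COX5A 0.04, with SEs of 0.09 to 0.13, and COX8 had the highest at 0.19 (SE 0.13).

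**Figure D3:**
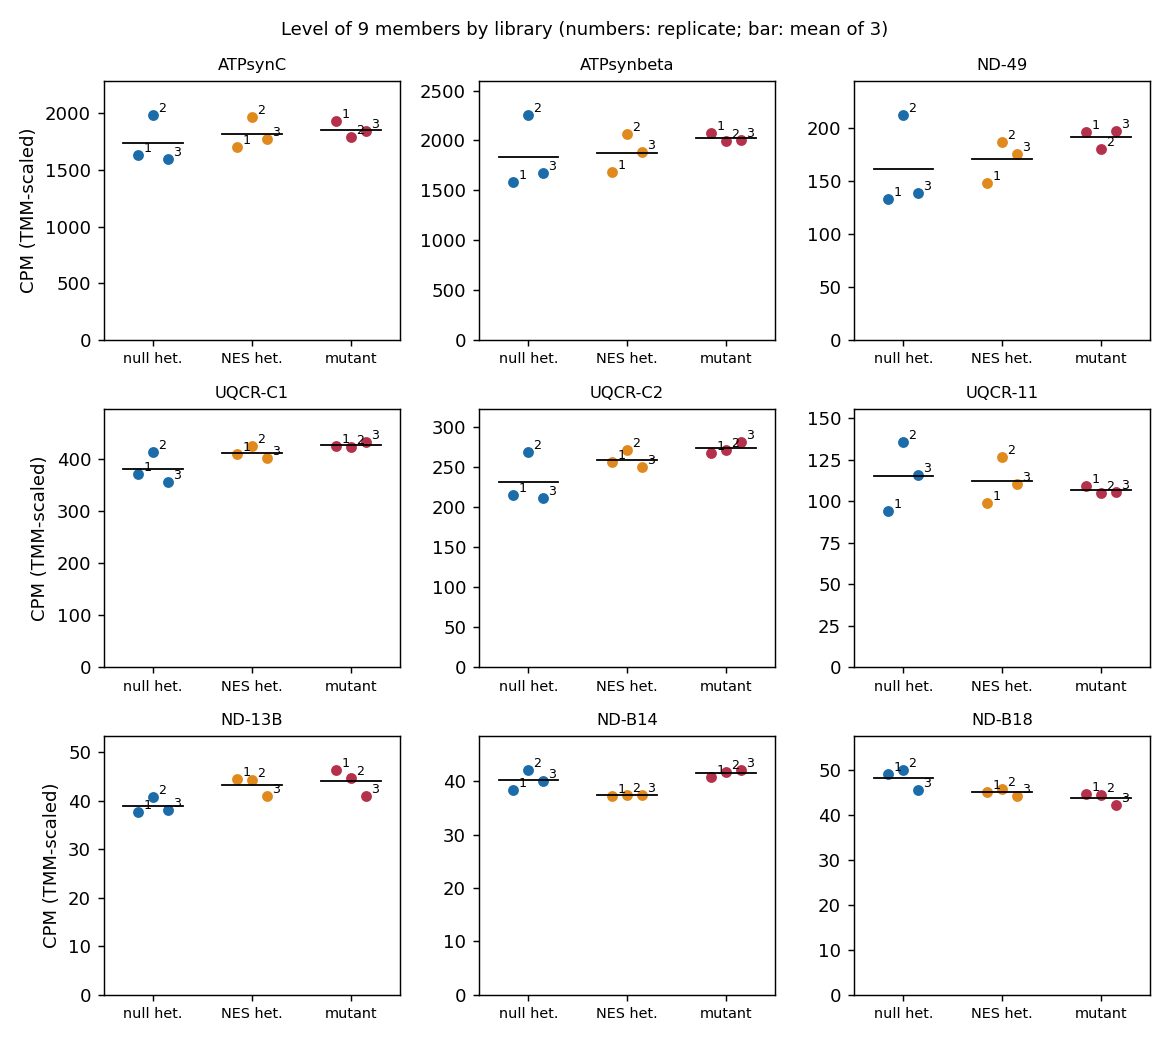
TMM-scaled CPM of 9 genes by genotype, 1 numbered point per library with a bar at the mean of 3. The mutant libraries of UQCR-C1 and ND-13B lie above the null heterozygote and those of ND-B18 below it, while replicate 2 of the null heterozygote is the highest point for ATPsynC, ATPsynbeta and ND-49.

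The intervals describe the size of difference of each gene in the fit as reported. They are unadjusted, rest on the spread between these libraries, and do not cover the shifts between settings. Standard errors ran from 0.06 to 0.20 on the log2 scale, with a median of 0.10. In the mutant against the null heterozygote, the 95% interval lay within 1.5-fold either way for 55 of 56 genes, ND-49 being the exception with an upper bound of 0.64, and within 1.2-fold for 13. Against the NES heterozygote the interval lay within 1.5-fold for 56 of 56 and within 1.2-fold for 20. Between the heterozygotes these counts were 55, all but ND-MWFE, and 23.

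The mutant against the NES heterozygote asks what replacing the wild-type copy by the null allele does beside moe[NES]. The median log2 fold change was 0.05 (1.04-fold) with 48 of 56 genes positive, beside 0.002 over all genes, and 0 of 56 were called in edgeR, where 0.972% of all genes were. DESeq2 called 0, and 1 of 56 had an unadjusted p below 0.05, against 980 of all genes. Medians were 0.05, 0.04, 0.06 and 0.05 for complexes I, III, IV and V. In the fit as reported, null heterozygote libraries enter this comparison mainly through the shared estimate of the spread. With the eggshell share or the replicate number as a term, they also help to set that term. In each of 19 alternative settings 0 of the set were called, with medians between 0.02 and 0.10. Settings that only leave out null heterozygote libraries could hardly move this median, so they say little about its stability. The median was 0.02 without NES heterozygote replicate 1, without replicate 3 and with the eggshell share as a term, and 0.10 without NES heterozygote replicate 2.

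ND-B14 (FBgn0033570, 2R:10897144-10897885), whose mammalian counterpart binds the acyl carrier protein in complex I, had the smallest p of that comparison. It was at 40.8, 41.7 and 42.1 CPM in the mutant, 37.2, 37.5 and 37.5 in the NES heterozygote and 38.4, 42.0 and 40.1 in the null heterozygote. The NES heterozygote libraries lay below all other libraries and close together, at 37.4 ± 0.130 CPM (SD, n = 3). How many of all genes have 1 genotype below both others was not counted. The log2 fold change was 0.15 (SE 0.06, edgeR adjusted p = 0.406) for the mutant against the NES heterozygote and -0.10 (SE 0.06, adjusted p = 0.723) for the NES over the null heterozygote. Of its exon bases, 12.9% are shared with CG12942 on the opposite strand. Besides ND-B14, the mutant was wholly above the NES heterozygote for ND-18, ND-39, ND-51 and ND-B12, 5 of 56 in all, where 13.5% of all genes were, and wholly below for 0 of 56, where 11.4% were. The highest log2 fold changes were 0.17 for ND-49, 0.15 for ND-B14 and 0.13 for ATPsynG, and the lowest were -0.07 for UQCR-11 and -0.05 for ND-B14.5B and ND-B15. Each of these 6 except ND-B14 had an SE of 0.09 or more and groups that overlapped.

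Between the heterozygotes the median log2 fold change of the NES against the null heterozygote was 0.04 (1.03-fold) with 44 of 56 positive, and -0.003 over all genes. With libraries scaled by size alone it was -0.003, with 27 of 56 positive. In edgeR 0 of 56 were called, where 0.833% of all genes were, DESeq2 called 0, and 0 had an unadjusted p below 0.05, against 825 of all genes. Medians by complex were 0.03 for I, 0.04 for III, 0.05 for IV and 0.06 for V. The highest were UQCR-C2 at 0.16 (SE 0.09), ND-13B at 0.16 (SE 0.08) and ATPsyngamma at 0.12 (SE 0.11), and the lowest were ND-MWFE at -0.15 (SE 0.20), ND-B14 at -0.10 (SE 0.06) and ND-B18 at -0.10 (SE 0.06). ND-13B was wholly higher and ND-B14 wholly lower in the NES heterozygote, where 6.25% and 7.05% of all genes were.

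The direction of this median changed with the libraries and the scaling used. Without replicate 2 the median was 0.15 and 3 genes were called higher (ATPsyngamma, ND-51 and UQCR-C2), where 8.38% of all genes were called. Without replicates 1 and 3 it was -0.15, with 1 of 56 positive and 0 called. Without replicate 1 and without replicate 3 it was -0.02 in each, with 0 called. It was -0.01 without NES heterozygote replicate 2. Fitted with the eggshell share as a term, it was -0.09, with 4 of 56 positive and 5 called lower (ATPsynbeta, ND-49, COX7C, ND-MLRQ and UQCR-11), where 29.4% of all genes were called.

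**Figure D4:**
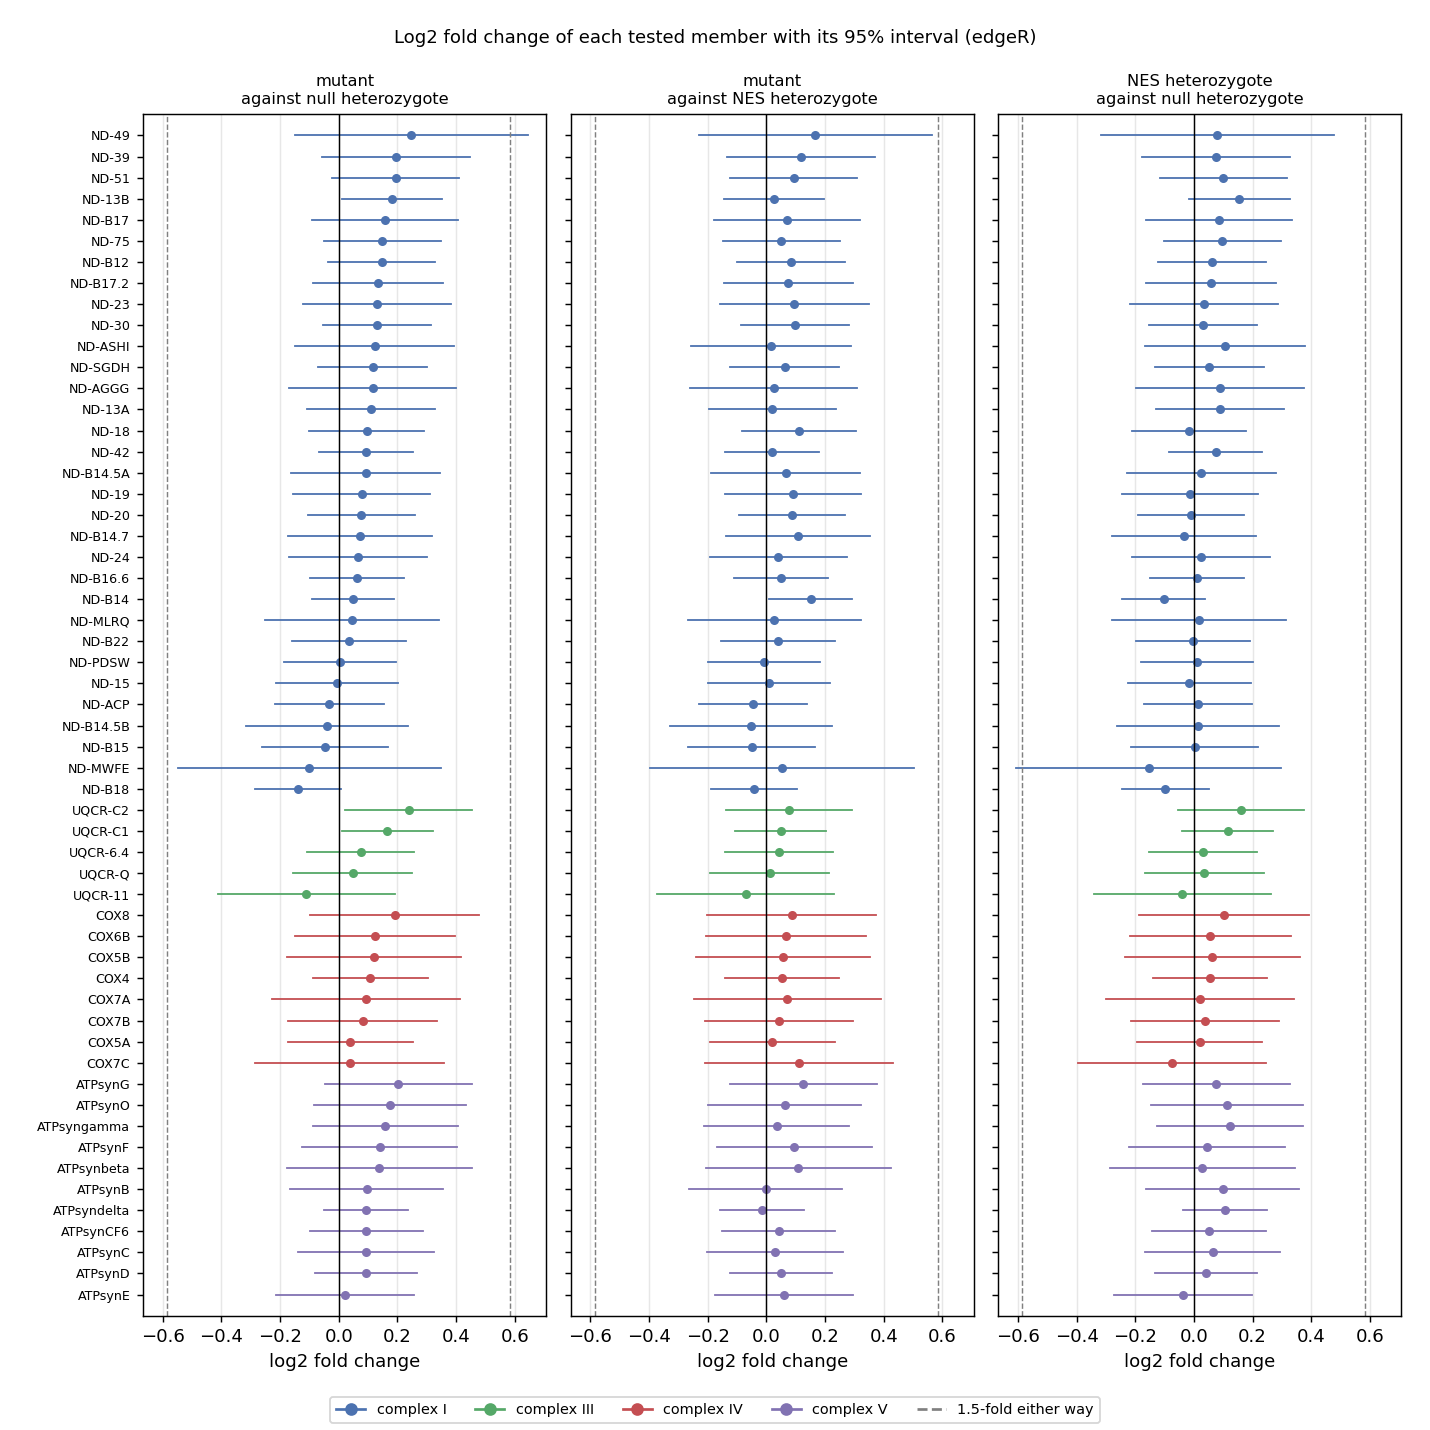
Log2 fold change of each of the 56 tested genes with its 95% interval from edgeR in the 3 comparisons, coloured by complex and in the same order in each panel. Dashed lines mark 1.5-fold either way, which only the interval of ND-49 (mutant against null heterozygote) and of ND-MWFE (NES against null heterozygote) crosses.

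**Figure D5:**
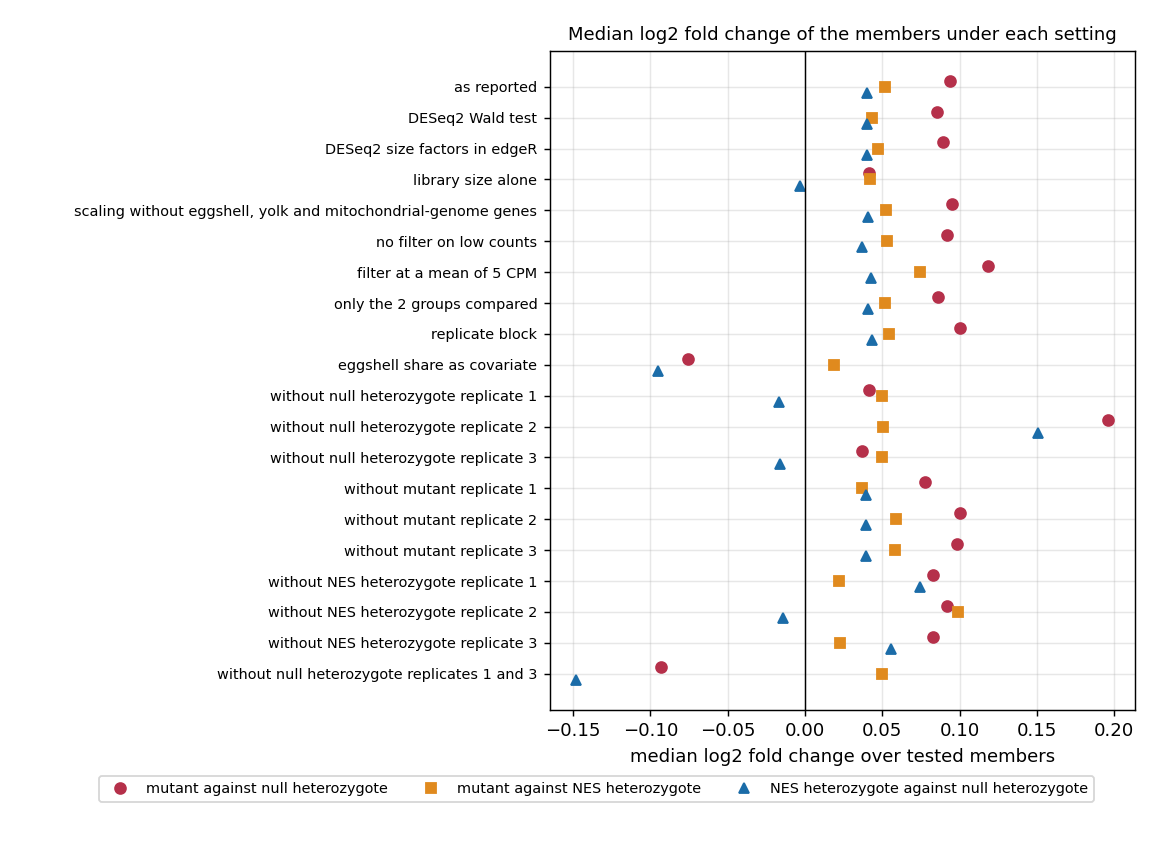
Median log2 fold change over the tested genes in each comparison, as reported and under each alternative setting. The median of the mutant against the NES heterozygote stays between 0.02 and 0.10, while both medians against the null heterozygote lie below 0 with the eggshell share as a covariate and without null heterozygote replicates 1 and 3.

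Genes moved together across libraries. Over the 9 libraries, the correlation of each gene with the mean of the other tested genes had a median of 0.86 and was above 0.5 for 53 of 56, as a description over libraries that share depth and eggshell differences. The share above 0.5 was not computed over all genes. For 7248 genes outside the set, the correlation with the mean of the set ran from -0.99 (Oseg6) to 0.99 (eIF2gamma). A high value is therefore not particular to the respiratory genes. Among the 56, the correlation was highest for ATPsynF, a membrane subunit of ATP synthase, at 0.98. ND-B18 stood apart at -0.04, followed by ND-15 at 0.33 and ND-B14 at 0.43. These 3 genes are subunits of complex I.

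On the small chromosome 4, both members, ND-49 and ATPsynbeta, had among the widest coefficients of variation (16.2% and 11.8%), and their log2 fold changes against the null heterozygote were 0.25 and 0.14, beside a median of -0.14 over all 80 tested genes of chromosome 4. The 95% interval of each gene (-0.15 to 0.64 and -0.18 to 0.45) contains that median. The 10 tested members on X, which carries Moe, had medians of 0.09, 0.05 and 0.03 in the mutant against the null heterozygote, the mutant against the NES heterozygote and the NES against the null heterozygote. These were close to 0.09, 0.05 and 0.04 over all 56.

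Respiratory subunits with other symbols were taken from separate lists. Of complex II, SdhA, the flavoprotein that oxidises succinate, was at 192, 251 and 199 CPM in null heterozygote libraries, 241, 236 and 252 in the mutant and 210.5, 233 and 214 in the NES heterozygote. Replicate 2 of the null heterozygote lay within the mutant range and replicates 1 and 3 below it. SdhB was at 120.2, 117 and 101.5 CPM in null heterozygote libraries, 124, 111.5 and 113 in the mutant and between 108 and 116 in the NES heterozygote, so that all groups overlapped and null heterozygote replicate 1 was above replicate 2. The log2 fold change of the mutant against the null heterozygote was 0.18 for SdhA, 0.04 for the iron-sulphur subunit SdhB, 0.19 for SdhC and 0.14 for SdhD, the membrane anchors, with 0 of 4 called. Against the NES heterozygote these were 0.15, 0.04, 0.23 and -0.01, and 0.04, 0.01, -0.04 and 0.15 between the heterozygotes, again with 0 of 4 called. The copies SdhAL and SdhBL had 1 and 6 counts in all.

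Of 10 subunit genes with other symbols found in the files, 9 were tested and 0 were called in any comparison. The alpha subunit gene of ATP synthase, blw, was at 1696 ± 215 CPM in null heterozygote libraries, 1911 ± 118 in the mutant and 1834 ± 130 in the NES heterozygote (SD, n = 3), next to ATPsynbeta, its partner in the catalytic head, at 1838 ± 367, 2023 ± 42.9 and 1876 ± 193. Against the null heterozygote the mutant had 0.17 for blw, 0.08 for sun, 0.24 for levy, 0.13 for cype, 0.22 for the Rieske iron-sulphur protein RFeSP, -0.01 for Cyt-c1 (cytochrome c1), 0.06 for ox and 0.06 for Neb-cGP. The copy Cyt-c1L had 94 counts in all and 1.17 (SE 0.66), and Cyt-c-d had 10 counts in all. The median of the 9 was 0.13 in the mutant against the null heterozygote, 0.05 against the NES heterozygote and 0.08 between the heterozygotes.

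The mitochondrial genome encodes 13 subunits of the same complexes, and all 13 were tested. Their median log2 fold change was 0.24 for the mutant against the null heterozygote, -0.10 against the NES heterozygote and 0.24 between the heterozygotes, with 0 of 13 called in each. Their summed CPM was 9886, 16414 and 11870.0 in null heterozygote replicates 1, 2 and 3, then 14300.0, 14001 and 14508 in the mutant and 13350.0, 16253 and 16055 in the NES heterozygote. Relative to the summed CPM of the 56 nuclear genes this was 1.07 to 1.41 in the null heterozygote, 1.29 to 1.34 in the mutant and 1.36 to 1.57 in the NES heterozygote. The ratio therefore overlapped between the null heterozygote and each of the other groups, and it did not overlap between the mutant and the NES heterozygote. The library kit selects polyadenylated RNA, so these levels are those of polyadenylated mitochondrial transcripts.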

How the data were processed

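Per the labels' protocols, TRIzol RNA went into TruSeq Stranded mRNA libraries for HiSeq sequencing. HTSeq, SAMtools 0.1.19, HISAT2 2.0.4, FastQC and Trimmomatic 0.36 appear in the submitters' processing notes, with the build BDGP6. Strand setting, annotation release and handling of multiply mapped reads are not given in the sources used, so values of overlapping genes and of close copies are uncertain. The authors deposited raw read counts per gene, without normalization, for 9 libraries. Symbols, coordinates and exon lengths came from Ensembl release 115 (BDGP6.54), which matched 17252 of 17558 identifiers. The members, gene lists, alternatives and rule for named genes were chosen with earlier results of these data known.

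Counts were fitted with edgeR 4.0.16 (R 4.3.3, limma 3.58.1): filterByExpr (minimum count 10, minimum total 15) kept 8642 genes, libraries were scaled by TMM, and a quasi-likelihood model with 1 coefficient per genotype was fitted to all 9 libraries. P-values were adjusted by Benjamini-Hochberg over all genes tested, at a threshold of 0.05. The biological coefficient of variation was 20.1%. The procedure was tested on simulated data. No 2 replicates agreed within sampling noise (chi-square divided by its degrees of freedom, 16.7 to 289). Named with values are called genes, the 3 highest and 3 lowest log2 fold changes per comparison at a mean of at least 1 CPM, the 3 highest and 2 lowest levels per length of each complex, the paralogues, and a list of core and other subunits. Genes wholly apart between groups, COX8 and ND-15 were named after their values were seen. Correlations of the deviations of same-numbered replicates ran from -0.63 to 0.72 and were not above 0.1 in every pair, so the numbers were not taken as pairs. Alternative settings were library size alone, DESeq2 1.42.0, DESeq2 size factors, no filter, a filter at a mean of 5 CPM, the 2 compared groups alone, a replicate block, library scaling with eggshell, yolk and mitochondrial genes left out, the eggshell share as a covariate, and leaving out libraries. Figures were drawn with matplotlib 3.10.9.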

Additional observations from a re-analysis of the deposited data

How the results depend on the processing

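In 19 alternatives, the mutant against the NES heterozygote kept 0 calls and a positive median log2 fold change. Those that only leave out null heterozygote libraries could hardly move that median. With the eggshell share as a covariate, calls were 1 (mutant against null heterozygote) and 5 (NES against null heterozygote), with medians of -0.076 and -0.095. Without null heterozygote replicates 1 and 3, which leaves 1 library whose spread is assumed to match the other groups, these medians were -0.093 and -0.15, with 0 calls in both. Leaving out 1 library at a time gave 0 to 23 calls and medians of 0.037 to 0.20 for the mutant against the null heterozygote, and 0 to 3 calls and medians of -0.017 to 0.15 for the NES against the null heterozygote. For the mutant against the NES heterozygote these were 0 to 0 calls and 0.022 to 0.099. The highest counts came without null heterozygote replicate 2. With the replicate number as a block, calls were 0 in each comparison and medians 0.10, 0.05 and 0.04, so the block changed no call. Of 342 alternative values of the 18 named log2 fold changes, 324 kept direction and call, 12 changed sign without being called, 6 became called and 0 reversed. Medians of single complexes were recomputed under the same settings, an addition made after seeing the data. The causes of these shifts were not tested. Depth limits the paralogues, none of which passed the low-count filter with all 9 libraries; COX7CL passed it and was called without null heterozygote replicate 2.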

Other observations

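All 12 tested genes of the tricarboxylic acid cycle, which feeds the respiratory chain, had a positive log2 fold change in the mutant against the null heterozygote (median 0.13), 9 of 12 against the NES heterozygote (0.08) and 9 of 12 between the heterozygotes (0.05), with 0 called in each. The citrate synthase gene kdn was at 233 ± 50.8 CPM in null heterozygote libraries, 279 ± 15.7 in the mutant and 237 ± 24.5 in the NES heterozygote (SD, n = 3). The aconitase gene mAcon1 had the lowest adjusted p of this list, with a log2 fold change of 0.31 (SE 0.07, edgeR adjusted p = 0.118) for the NES over the null heterozygote. Among transport genes of the mitochondrial membranes, the ADP/ATP carrier gene sesB was at 1977 ± 494, 2263 ± 108 and 2126.5 ± 330.3 CPM (null heterozygote, mutant and NES heterozygote). Of these transport genes, 0 of 5 were called.

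The gene srl, which encodes the fly PGC-1 homologue, a coactivator of mitochondrial genes, ran opposite to the respiratory genes. It was at 642, 388 and 647 CPM in null heterozygote libraries, 372, 463 and 394 in the mutant and 594, 428 and 505 in the NES heterozygote. Null heterozygote replicates 1 and 3 were the highest and replicate 2 lay among the mutant libraries. Its log2 fold change was -0.45 (SE 0.20, edgeR adjusted p = 0.300) for the mutant against the null heterozygote. The other 3 listed regulators, ewg, Ets97D and ERR, had 0.20, -0.19 and -0.05, with 0 of 4 called in any comparison. Of 6 tested genes for mitochondrial DNA upkeep and expression 0 were called, and the gene of the mitochondrial RNA polymerase, PolrMT, had -0.28 (SE 0.15) in the mutant against the null heterozygote. Of 4 assembly factor genes with other symbols (Scox, Surf1, CIA30 and Ttc19) 0 were called.

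Among 7248 genes compared over the 9 libraries, those whose profile was most like the mean of the respiratory genes were the translation initiation factor gene eIF2gamma (Pearson r 0.99), CG14621, ras and bai (0.99 each), sesB and the mitochondrial chaperone gene Hsc70-5 (0.98 each). The least alike was Oseg6 (-0.99). These are descriptions over libraries that also differ in eggshell share.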
